A study of Mus musculus with 8 samples.

Results

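The 8 genes examined, all outside the clustered histone loci, were *H2afz*, *H2afv*, *H2afy*, *H2afy2*, *H3f3a*, *H3f3b*, *H1f0* and *H1fx*, and encode replacement histones. They were selected by gene name, without a threshold on any measured value but with earlier results of these data known. They are 8 of the 23343 genes in the RNA-seq tables. RNA was measured in 2 kinds of male germ cell, spermatocytes at the pachytene stage of meiosis (PS) and the round spermatids (RS) they form, from mice lacking both the ubiquitin ligase RNF8 and the germline Polycomb protein SCML2 (*Rnf8;Scml2*-dKO). H3K27ac, a histone acetylation found at active promoters and enhancers, was measured by ChIP-seq in wild-type PS and RS, where 177 of the 211311 intervals called in the 4 samples were annotated to the 8 genes or lay within 2 kb of their start sites. All 8 samples, 2 per stage and assay, came from adult testis of C57BL/6 mice, and neither assay included the genotype of the other, so a difference between the RNA and H3K27ac results cannot be told apart from a difference between genotypes. The dKO males are infertile with small testes, and dKO PS and RS could be sedimented from a single mouse. The labels do not say whether samples with the same number share an animal, so p-values measure the spread between the deposited samples.

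Most histones are made in S phase from clustered genes whose mRNAs lack a poly(A) tail. Replacement histones are encoded by dispersed genes with introns or poly(A) tails. They can be put into chromatin without DNA replication, also in meiotic and postmeiotic cells. They are not the only form there, since the study describes a testis-specific linker histone, H1T, that accumulates in spermatocytes past mid pachytene. H2A.Z (*H2afz* and *H2afv*) marks nucleosomes beside start sites, macroH2A (*H2afy* and *H2afy2*) carries a large non-histone domain and is known for its enrichment on the silenced XY body of spermatocytes, H3.3 (*H3f3a* and *H3f3b*, which encode the same protein) replaces H3 on transcribed genes and on the sex chromosomes, and H1.0 and H1X (*H1f0* and *H1fx*) bind linker DNA. In spermatids most histones are later exchanged for transition proteins and protamines.

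Between 9655405 and 12289694 reads fell on genes in each RNA library, and the peak lists held between 41095 and 74919 intervals, the highest number in RS replicate 1. The labels were set against marker genes in the RNA. In CPM (reads scaled to library size), the 6 spermatid genes summed to 269.6 and 473 in PS and to 7571 and 8173 in RS, and 6 spermatocyte genes to 936.5 and 713.6 in PS and to 364.4 and 536 in RS. The sum of the 5 Leydig cell genes was higher in PS (712.9 and 531 CPM, against 60.5 and 41.5 in RS). That of 3 macrophage genes was higher in RS (40.2 and 37 against 3.41 and 3.42). None of these genes was at 0, but they were not compared singly, and 1 gene can carry a sum. Whether other cells have a part in these sums or in the differences below was not tested. Spermatogonial genes summed to between 57 and 104.6, Sertoli genes to between 11.8 and 26.1 and peritubular genes to between 11.7 and 14.4 CPM over the 4 libraries, and both erythroid genes in the tables were at 0. The dKO libraries still held 93 and 110 *Rnf8* reads in PS and 61 and 50 in RS, and 40 and 92 *Scml2* reads in PS and 44 and 98 in RS. The deleted exons are not given in the sources used here and no wild-type RNA was analysed here, so these reads do not check the genotype.

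Transcript levels differed widely between the 8 genes. On the RPKM scale (reads scaled to transcript length and library size), *H3f3b* was highest in PS with 217 ± 38.7 (SD, n = 2), followed by *H2afz* with 185 ± 1.12, *H2afy* with 82.4 ± 2.88, *H1fx* with 58.01 ± 10.8 and *H3f3a* with 42.3 ± 3.91. *H2afv* (11.5 ± 3.25), *H1f0* (5.51 ± 0.339) and *H2afy2* (0.799 ± 0.228) were the low members. *H3f3b* and *H2afz* were closer to each other than the SD of *H3f3b*. In RS the order was *H3f3b* (126 ± 13.5), *H2afz* (65.9 ± 0.0291), *H3f3a* (44.5 ± 5.56), *H1fx* (37.0 ± 3.003), *H2afy* (19.0 ± 1.92), *H2afv* (10.7 ± 0.249), *H1f0* (5.35 ± 0.146) and *H2afy2* (1.51 ± 0.0442). There *H3f3a* and *H1fx* lay within the sum of their SDs. *H2afy* thus went from the third place in PS to the fifth in RS.

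**Figure D1:**
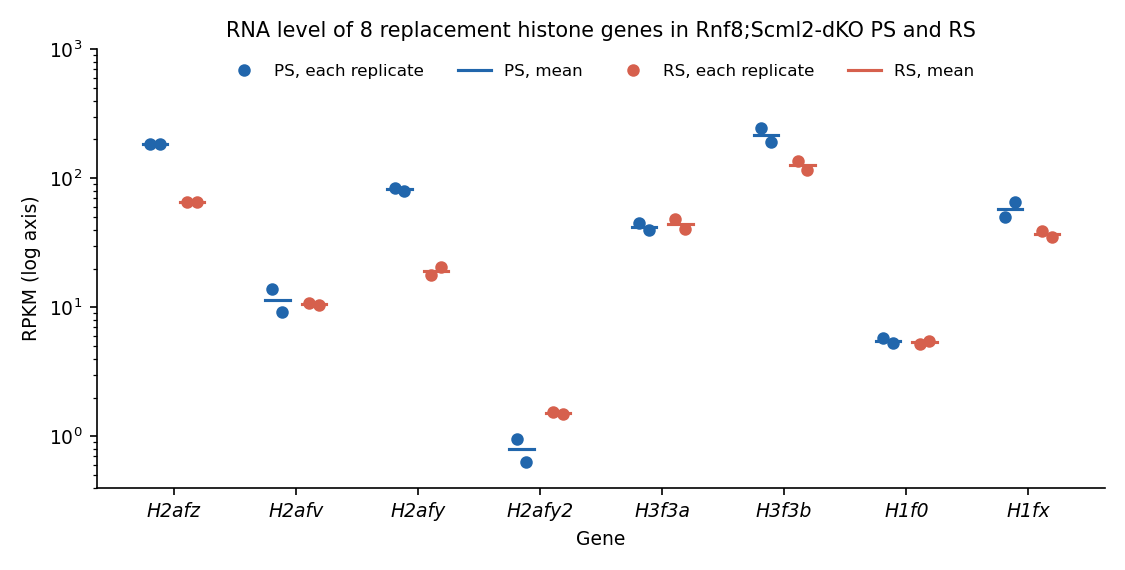
RPKM (log axis) of the 8 genes in each *Rnf8;Scml2*-dKO library, with PS in blue, RS in red, a point per replicate and a line at the mean of the 2 replicates. *H2afz* and *H2afy* show the widest gaps between the stages, from 185 to 65.9 and from 82.4 to 19.0, while the PS and RS points of *H2afv*, *H3f3a* and *H1f0* overlap.

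To find which members differed between the stages, RS was compared with PS by edgeR across all 14647 genes with enough reads. All 8 genes passed this filter, and a gene was called at an adjusted p of at most 0.05 and a change of at least 1.5-fold. *H2afz*, *H2afy*, *H3f3b* and *H1fx* were lower in RS, *H2afy2* was higher, and *H2afv*, *H3f3a* and *H1f0* were not called. Thus 5 of 8 members were called, where 58.0% of all tested genes were; 4 were lower and 1 higher, where 27.6% and 30.4% of all genes were. The median log2 fold change was -0.34 over the 8 members and 0.01 over all genes. These are levels relative to the total of each library after TMM scaling, in bulk cells. Fewer cells of a type and less RNA per cell therefore cannot be told apart.

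At the promoters, the strongest H3K27ac interval within 2 kb of a start site was compared by limma across 11394 genes with an interval in all 4 samples, after each sample was centred on its median. Fold enrichment here is the fragment pileup over one background value per sample. Of the 7 members tested, 3 were called, where 39.6% of all genes were: *H2afz* and *H2afy* were lower in RS (18.9% of all genes were lower) and *H1fx* was higher (20.7% were higher). The eighth, *H2afy2*, had no interval within 2 kb in any sample. The median enrichment over all genes was 17.3 and 18.6 in PS and 15.5 and 11.6 in RS. Without centring, the median difference over all genes moved to -0.42 (log2), the split of all calls from 2361 higher and 2148 lower to 963 higher and 4041 lower, and that of the members to 0 higher and 3 lower, *H2afz*, *H2afv* and *H2afy*. Differences are therefore given relative to the median gene.

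**Figure D2:**
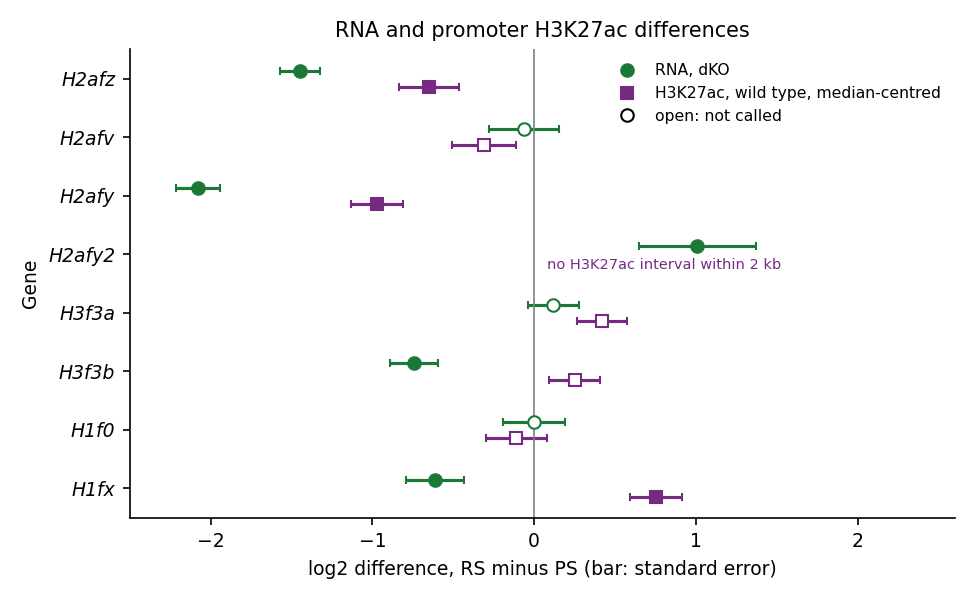
Log2 difference of RS minus PS for RNA in *Rnf8;Scml2*-dKO cells (green circles) and for promoter H3K27ac in wild-type cells after median centring (purple squares), with standard errors as bars and open symbols for values not called. *H2afz* and *H2afy* lie to the left of 0 in both assays, and *H1fx* lies at -0.61 for RNA and at 0.75 for H3K27ac; without centring the H3K27ac values of *H3f3a* and *H3f3b* fall to -0.00 and -0.17, and that of *H1fx*, at 0.33, is no longer called.

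*H2afz* (NM_016750, mm10 chr3:137864599-137866922, plus strand) encodes H2A.Z.1. Replicates 1 and 2 of PS held 2025 and 1957 reads of this gene and those of RS 882 and 743, or 185.7 and 184.1 RPKM against 65.9 and 65.9. Both RS libraries lay well below both PS libraries. The fitted level was 2.73-fold lower in RS (log2 fold change -1.45, SE 0.12, adjusted p = 2.07e-05 by edgeR). Near-identical sequence elsewhere in the genome, at 97% identity or more, covers 90.9% of the *H2afz* transcript, and reads were kept only where they aligned uniquely, so its level is uncertain while both stages were counted in the same way.

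The second H2A.Z gene was not called. *H2afv* (NM_029938, mm10 chr11:6427226-6444443, minus strand), which encodes H2A.Z.2, had 257 and 167 reads in PS and 248 and 202 in RS. The RS values lay between the PS values. Its log2 fold change was -0.06 (SE 0.22, adjusted p = 0.81 by edgeR), with a 95% interval of the fold from 0.68 to 1.35. Its value without PS replicate 1 was 0.23 (adjusted p = 0.38). The RPKM of *H2afz* was 13.5 and 20.03 times that of *H2afv* in PS, and 6.08 and 6.29 times in RS, so *H2afz* went from 93.1% and 95.2% of the summed H2A.Z RPKM to 85.9% and 86.3%. The difference between both genes' changes was not tested.

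The promoters of this pair are shown because these genes encode near-identical proteins and only one of them was called. Each sequence is the 250 bases before the gene's start in RefSeq's GRCm38.p6 promoter table, 5′ to 3′ on the gene's strand, read from GRCm38.p6, which is the mm10 assembly. For *H2afv* that start is the one the deposited files give, and for *H2afz* the window ends 112 bases upstream of the start in the files. Capitals mark matches on either strand to CCAAT (bound by NF-Y), TATAAA (the TATA box), TGACGTCA (a cyclic AMP response element), TAACNG (a MYB core) or GGGCGG (a GC box).
H2afz, chr3:137864237-137864486: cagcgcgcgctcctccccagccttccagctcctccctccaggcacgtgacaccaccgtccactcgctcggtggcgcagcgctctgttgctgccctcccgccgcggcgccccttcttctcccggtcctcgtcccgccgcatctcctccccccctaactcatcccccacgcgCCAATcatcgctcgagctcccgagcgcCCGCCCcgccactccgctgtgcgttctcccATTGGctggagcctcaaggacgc
H2afv, chr11:6444444-6444693: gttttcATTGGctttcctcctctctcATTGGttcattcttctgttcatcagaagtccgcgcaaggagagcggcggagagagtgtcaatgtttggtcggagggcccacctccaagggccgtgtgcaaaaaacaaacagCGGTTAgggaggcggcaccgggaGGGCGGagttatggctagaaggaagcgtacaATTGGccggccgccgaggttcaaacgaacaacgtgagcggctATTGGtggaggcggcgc
The *H2afz* window was 71.2% G and C with 28 CpG dinucleotides, and held 2 CCAAT matches and 1 GC box. The *H2afv* window was 57.2% G and C with 19 CpG, and held 4 CCAAT matches, 1 MYB core and 1 GC box. Of 32536 RefSeq promoter windows of this length, 33.8% held CCAAT, 19.9% the MYB core and 33.0% the GC box, with a median of 6 CpG. The motifs were not overlapping in these windows, and a match is no evidence of binding. The upstream part of *H2afz* also overlaps the antisense gene *Gm43403*.

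H3K27ac at the *H2afz* promoter was 35.0- and 27.9-fold enriched in PS and 15.9- and 13.9-fold in RS, and the stages did not overlap. Relative to the median gene it was lower in RS by limma (log2 difference -0.65, SE 0.19, adjusted p = 0.016). Without PS replicate 1 the difference was -0.43 and the call was lost (adjusted p = 0.17). The interval over the start site was 2615 and 2685 bases wide in PS and 3546 and 2533 bases in RS. RNA and promoter H3K27ac were both called lower for *H2afz*, as they were for *H2afy*. Of the 10773 genes tested in both assays, 21.4% were called in the same direction in both. That share takes genes higher in both and genes lower in both together.

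At *H2afv* the promoter was 20.6- and 27.4-fold enriched in PS and 19.5- and 10.4-fold in RS, with a log2 difference of -0.31 (SE 0.20, adjusted p = 0.23 by limma). Leaving out RS replicate 1, the one with the most intervals, gave -0.56 (adjusted p = 0.036). Upstream of the gene, strong intervals were listed in PS. An interval from -5002 to -2973 bases relative to the start site (chr11:6447416-6449445) was 35.8- and 48.8-fold enriched in PS, above the promoter in the same samples, while RS replicate 1 had a 3.66-fold interval there and RS replicate 2 had none. A further block from -7964 to -6396 bases was 24.7- and 22.5-fold enriched in PS, with a 3.25-fold interval in RS replicate 1 and none in RS replicate 2, and one from -10920 to -9475 bases was 11.1- and 13.2-fold enriched in PS with no interval in RS. The files annotate these intervals as upstream of *H2afv*, and no GENCODE gene overlaps the strongest summit. Of 155 upstream intervals at least 20-fold enriched in both PS samples, 32 (20.6%) had no overlapping RS interval of 5-fold or more, and of 4144 such intervals in all regions 4.63% did. This pattern was picked after its values were seen and is a description. With a window of 5 kb, which takes in the first block, the *H2afv* difference was -1.13 (adjusted p = 0.00097).

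The 251 bases centred on the strongest PS summit of this upstream block, at -3850 bases in PS replicate 2, are printed on the strand of *H2afv* because H3K27ac was strong there in PS and weak or absent in RS.
H2afv upstream summit, chr11:6448168-6448418: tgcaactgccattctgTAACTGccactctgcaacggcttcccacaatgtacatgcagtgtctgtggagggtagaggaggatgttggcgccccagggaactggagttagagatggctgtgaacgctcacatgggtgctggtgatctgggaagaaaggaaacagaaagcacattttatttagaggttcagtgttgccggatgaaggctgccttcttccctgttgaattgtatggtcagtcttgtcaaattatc
The window was 49.0% G and C, held 4 CpG and 1 MYB core match (capitals) and none of the other motifs. Among 8276 windows of this length at upstream, intron and intergenic summits of PS replicate 1 on the chromosomes of the 8 genes, 26.7% held the MYB core and the median CpG number was 3.

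**Figure D3:**
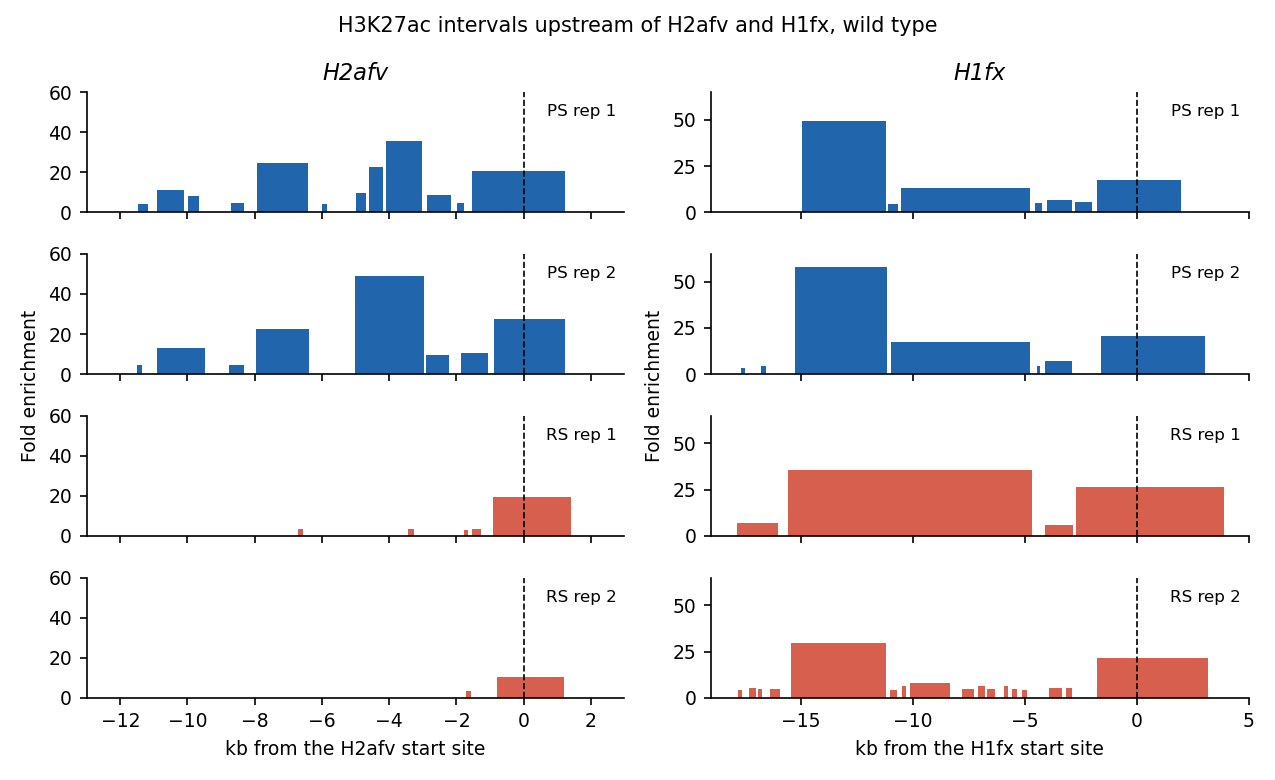
H3K27ac intervals around *H2afv* and *H1fx* in each wild-type sample, drawn by distance from the start site (kb, dashed line at 0, negative upstream); bar width is the length of an interval and bar height its highest fold enrichment. The PS blocks upstream of *H2afv*, up to 35.8- and 48.8-fold, have at most a 3.66-fold counterpart in RS, whereas the far upstream block of *H1fx* is present in all 4 samples.

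The widest RNA difference among the members was at *H2afy* (4 RefSeq transcripts, mm10 chr13:56073622-56135550, minus strand), which encodes macroH2A1. It had 1886 and 1750 reads in PS and 482 and 470 in RS, or 84.5 and 80.4 RPKM against 17.7 and 20.4. Both RS libraries were far below both PS libraries. The fitted level was 4.23-fold lower in RS (log2 fold change -2.08, SE 0.14, adjusted p = 6.61e-06 by edgeR). The splice forms of macroH2A1 were summed and were not compared.

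*H2afy2* (NM_207000, mm10 chr10:61738647-61783864, minus strand), which encodes macroH2A2, was the lowest member in both stages and the only one called higher in RS. It had 20 and 13 reads in PS and 41 and 33 in RS, or 0.960 and 0.638 RPKM against 1.54 and 1.48. The RS values were above the PS values, from few reads. The log2 fold change was 1.01 (SE 0.36, adjusted p = 0.037 by edgeR). This call was lost with DESeq2 (adjusted p = 0.17) and without PS replicate 2 (log2 fold change 0.81, adjusted p = 0.093), RS replicate 1 (0.97, adjusted p = 0.20) or RS replicate 2 (1.05, adjusted p = 0.15). Its last exon region overlaps the tail of *Aifm2* on the opposite strand, which had 462 and 453 reads in PS and 238 and 208 in RS, and the counts used no strand. *H2afy* stayed the predominant macroH2A gene, at 88.0 and 126 times the RPKM of *H2afy2* in PS and 11.4 and 13.8 times in RS.

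The *H2afy* promoter was 20.2- and 24.1-fold enriched for H3K27ac in PS and 9.36- and 7.55-fold in RS, so every RS value was below every PS value. The log2 difference relative to the median gene was -0.97 (SE 0.16, adjusted p = 0.00058 by limma), and it was called without each sample in turn. The interval over the start site was also narrower, 3295 and 3732 bases in PS and 1702 and 974 bases in RS. Over the 8889 genes with such an interval in all samples the median width was 1855 and 1949 bases in PS and 2349 and 1630 bases in RS, and the PS width of *H2afy* was 2.63 times its RS width, where the median gene had 0.956.

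The promoter of *H2afy* is shown because RNA and promoter H3K27ac were both lower in RS. The window is the nearest 250 bases before the start without an exon of a GENCODE coding transcript, 81 bases upstream of the RefSeq start. It lies within the span of the GENCODE gene *H2afy*, which reaches further upstream.
H2afy, chr13:56135632-56135881: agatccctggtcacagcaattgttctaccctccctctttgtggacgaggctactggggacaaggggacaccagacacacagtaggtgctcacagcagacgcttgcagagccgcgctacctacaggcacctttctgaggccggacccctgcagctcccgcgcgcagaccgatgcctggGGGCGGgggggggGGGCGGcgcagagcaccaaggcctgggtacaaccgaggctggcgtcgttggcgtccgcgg
It was 66.4% G and C with 18 CpG, and held 2 GC box matches and none of the other motifs.

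Intervals away from the macroH2A promoters also differed between the stages. An intronic *H2afy* interval from 28817 to 29971 bases downstream of the start site was 9.88- and 11.5-fold enriched in PS and absent from the RS lists. In contrast, an upstream interval from -20191 to -18143 bases was 5.76- and 4.93-fold enriched in PS and 13.4- and 10.4-fold in RS. *H2afy2*, without any interval at its promoter, had an interval annotated as exonic from 29875 to 30749 bases downstream, with 8.23- and 8.77-fold enrichment in PS and 5.70-fold in RS replicate 1. An intronic interval from 23084 to 24832 bases was 7.73- and 9.29-fold enriched in RS and absent from the PS lists. These distal values carry no test.

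The 251 bases at the intronic *H2afy* summit, 29559 bases downstream in PS replicate 2, are printed on the gene's strand.
H2afy intron summit, chr13:56105866-56106116: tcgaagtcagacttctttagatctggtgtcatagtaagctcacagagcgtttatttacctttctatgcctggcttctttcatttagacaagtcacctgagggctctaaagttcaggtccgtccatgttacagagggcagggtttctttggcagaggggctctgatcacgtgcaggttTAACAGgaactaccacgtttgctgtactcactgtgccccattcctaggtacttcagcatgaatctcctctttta
They were 46.2% G and C with 5 CpG and held 1 MYB core match, in capitals, and none of the other motifs. The intronic *H2afy2* summit that was present in RS, of the same length, held none of the 5 motifs.

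**Figure D4:**
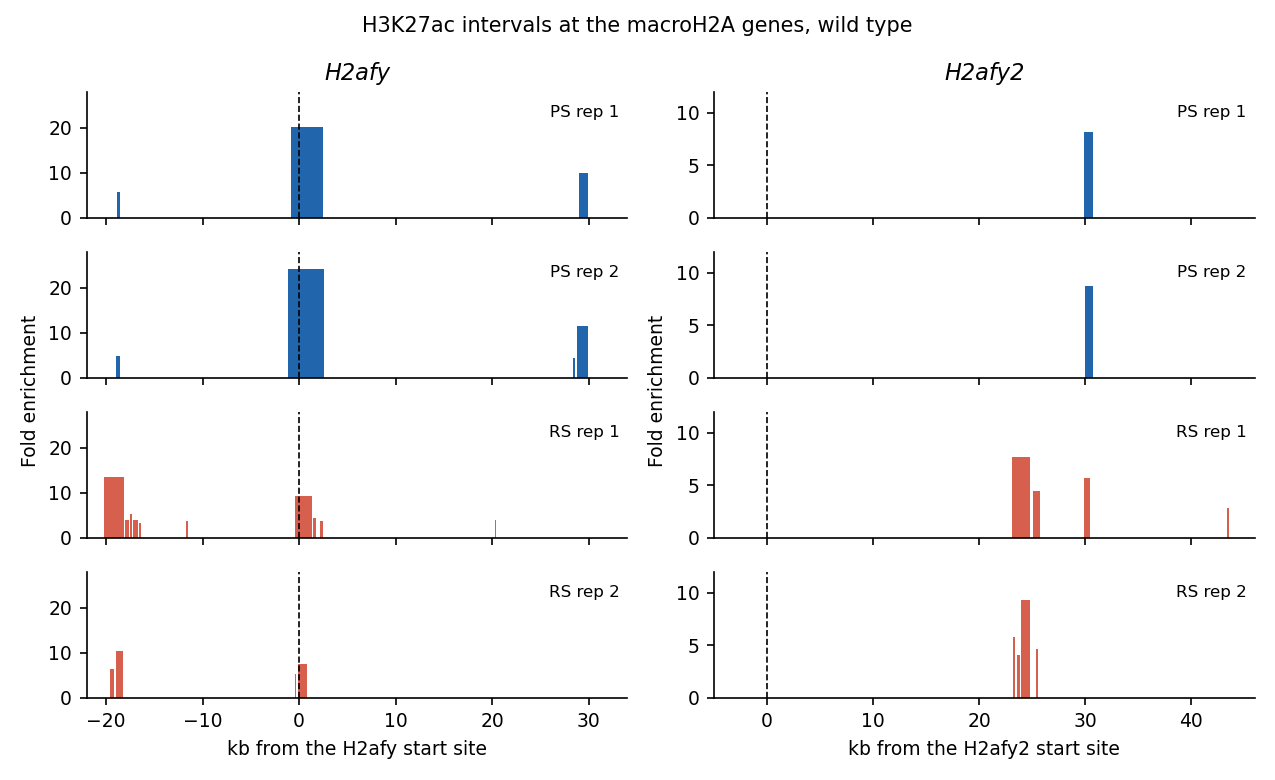
H3K27ac intervals at *H2afy* and *H2afy2* in each wild-type sample by distance from the start site (kb, dashed line at 0); bar width is the length of an interval and bar height its highest fold enrichment. At *H2afy* the start-site interval is lower in RS (9.36- and 7.55-fold) and the upstream one higher (13.4- and 10.4-fold), and *H2afy2* has no interval at its start site in any sample.

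Of the H3.3 genes, *H3f3b* was lower in RS and *H3f3a* was not called. *H3f3b* (NM_008211, mm10 chr11:116021961-116024504, minus strand), the most abundant member in both stages, had 5551 and 4200 reads in PS and 3772 and 2729 in RS, or 244 and 190 RPKM against 135 and 116. The stages did not overlap, although the PS libraries differed from each other more than the RS libraries did. The fitted level was 1.67-fold lower in RS (log2 fold change -0.74, SE 0.15, adjusted p = 0.0023 by edgeR). Without PS replicate 1 it was -0.58, just under the 1.5-fold threshold, with an adjusted p of 0.0018.

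*H3f3a* (NM_008210, mm10 chr1:180802568-180813603, minus strand) had 552 and 472 reads in PS and 729 and 514 in RS. Its RPKM of 45.0 and 39.5 in PS and 48.4 and 40.6 in RS interleaved. The log2 fold change was 0.12 (SE 0.16, adjusted p = 0.53 by edgeR), with a 95% interval of the fold from 0.84 to 1.39. Since both genes encode one protein, their sum is the H3.3 transcript pool, which was 289 and 229 RPKM in PS and 184 and 157 RPKM in RS, with *H3f3b* making up 84.5% and 82.8% in PS and 73.6% and 74.1% in RS. Near-identical stretches elsewhere in the genome cover 36.5% of the *H3f3a* transcript, in 14 places on 9 chromosomes, and 55.2% of *H3f3b*, so these levels and shares are uncertain under unique alignment.

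By the mean log2 enrichment of the 7 promoters with an interval, *H3f3a* was highest in both stages (5.22 in PS and 5.21 in RS), while *H3f3b* came after *H3f3a*, *H1f0* and *H2afz* in PS (4.94) and next to *H3f3a* in RS (4.76). The *H3f3a* promoter was 34.6- and 40.0-fold enriched in PS and 43.1- and 31.9-fold in RS, and that of *H3f3b* 27.99- and 33.4-fold in PS and 32.5- and 22.6-fold in RS. The stages overlapped at both genes. Relative to the median gene the log2 difference was 0.42 at *H3f3a* (SE 0.16, adjusted p = 0.053 by limma) and 0.25 at *H3f3b* (SE 0.16, adjusted p = 0.24), neither of them called, and without centring they were -0.00 and -0.17. The *H3f3a* interval over the start site was wide, 3605 and 3834 bases in PS and 6263 and 5345 bases in RS. An interval between -18077 and -14949 bases, annotated in the files to both *H3f3a* and its neighbour *Sde2*, was 7.41- and 6.58-fold enriched in PS and 17.5- and 13.4-fold in RS. At *H3f3b* an interval from -2543 to -1562 bases was present in RS (7.32- and 7.55-fold) and absent from the PS lists; it lies inside a longer GENCODE form of *H3f3b*, and the files annotate it also to the neighbours *Galk1* and *Unk*. Widening the window to 5 kb turned the *H3f3b* difference to -0.55 (adjusted p = 0.015), where the strongest interval in 3 of the 4 samples is the one annotated to the promoter of *Unk*.

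**Figure D5:**
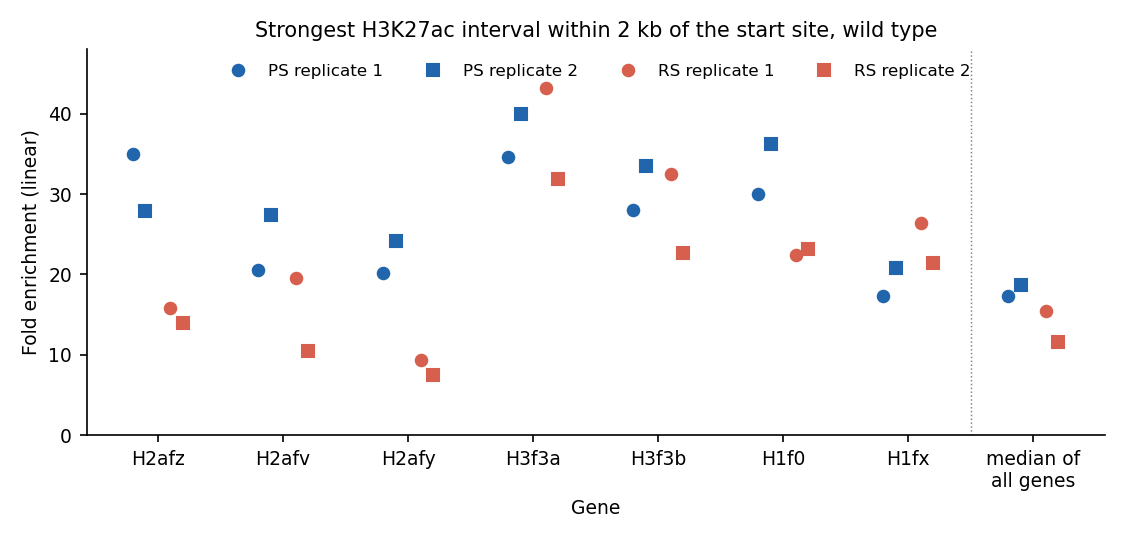
Fold enrichment (linear axis from 0) of the strongest H3K27ac interval within 2 kb of the start site in each wild-type sample, for the 7 members with one and for the median of all genes tested. *H2afz*, *H2afv*, *H2afy* and *H1f0* are lower in both RS samples than in both PS samples, as is the median gene, and *H1fx* is the member whose RS values, 26.4 and 21.5, exceed its PS values, 17.3 and 20.8.

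Of the linker histones, *H1f0* was not called and *H1fx* was lower in the RNA of RS. *H1f0* (NM_008197, mm10 chr15:79028212-79030500, plus strand), which encodes H1.0, known from differentiated cells, had 150 and 134 reads in PS and 168 and 147 in RS, or 5.75 and 5.27 RPKM against 5.25 and 5.45. The values interleaved. The log2 fold change was -0.00 (SE 0.19, adjusted p = 0.99 by edgeR), with a 95% interval of the fold from 0.74 to 1.35. Its promoter was 30.0- and 36.2-fold enriched for H3K27ac in PS and 22.4- and 23.2-fold in RS, lower in both RS samples, but not relative to the median gene (log2 difference -0.11, SE 0.19, adjusted p = 0.66 by limma). Thus *H1f0*, at percentile 50.5 of the tested genes by RPKM in PS, had a promoter enrichment in PS close to that of *H3f3b*, at percentile 98.3.

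*H1fx* (NM_198622, mm10 chr6:87980421-87981482, minus strand), which encodes H1X, had 610 and 774 reads in PS and 581 and 436 in RS, or 50.4 and 65.6 RPKM against 39.1 and 34.9. The stages did not overlap in RPKM. The fitted level was 1.53-fold lower in RS (log2 fold change -0.61, SE 0.18, adjusted p = 0.016 by edgeR), just past the threshold. The call was lost without PS replicate 2 (-0.34, adjusted p = 0.10) and without RS replicate 2 (-0.52, adjusted p = 0.088). *H1fx* lies within the antisense gene *Gm5577*, which had 309 and 278 reads in PS and 38 and 57 in RS; the library does not keep strand, so reads of the 2 genes cannot be told apart where they overlap.

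H3K27ac at the *H1fx* promoter was 17.3- and 20.8-fold enriched in PS and 26.4- and 21.5-fold in RS, so both RS values were higher. The log2 difference relative to the median gene was 0.75 (SE 0.16, adjusted p = 0.0032 by limma). It ranged from 0.67 to 0.83 with 1 sample left out, but was 0.33 without centring (adjusted p = 0.32 by limma). *H1fx* was thus called in opposite directions in the RNA and H3K27ac comparisons, as were 4.46% of the 10773 genes tested in both. The interval, shared with the start of *Gm5577*, was 3767 and 4610 bases wide in PS and 6585 and 4942 bases in RS. Upstream, in the block from -15587 to -4661 bases, the strongest interval was 49.4- and 58.1-fold enriched in PS and 35.4- and 29.6-fold in RS, above the promoter in every sample. It is annotated to *H1fx* and lies inside a long *Gm5577* transcript. Without centring, its level was lower in RS, as was that of the median gene, while that of the promoter was higher. This contrast was not tested.

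The *H1fx* promoter is shown for this opposed pair of values, as the 250 bases before the GENCODE start, 155 bases upstream of the RefSeq start.
H1fx, chr6:87981638-87981887: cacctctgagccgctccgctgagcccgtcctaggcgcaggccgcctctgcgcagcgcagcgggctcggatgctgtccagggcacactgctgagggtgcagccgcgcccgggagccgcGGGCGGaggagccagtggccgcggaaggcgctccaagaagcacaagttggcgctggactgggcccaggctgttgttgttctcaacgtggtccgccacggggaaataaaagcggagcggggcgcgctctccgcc
It was 70.8% G and C with 27 CpG and held 1 GC box. Over all 8 member windows, TATAAA and TGACGTCA were not found; 12.3% and 1.56% of all promoter windows held them. Windows placed in the same way were 74.4% G and C at *H1f0* and 78.4% at *H3f3a* with none and 2 GC box matches, 53.2% at *H2afy2* with no match to any of the motifs, and 36.8% at *H3f3b* with 1 CCAAT match, the latter inside an intron of the longer form.

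The factors that place these histones were described from lists of the pathway, beside the 27.6% of all tested genes that were lower in RS and the 30.4% that were higher. In the list of H2A.Z exchange, the subunits of the SRCAP, TIP60-p400 and INO80 complexes and ANP32E, 10 of 19 tested genes were lower in RS, 1 was higher and 8 were not called, with a median log2 fold change of -0.78 against 0.01 over all genes. The scaffold *Trrap* went from 11.2 and 14.7 RPKM in PS to 3.12 and 3.804 in RS (-1.87, SE 0.18, adjusted p = 4.47e-05 by edgeR), and *Mrgbp*, a TIP60 subunit, from 50.3 and 54.98 to 13.7 and 11.8 (-2.00, SE 0.17, adjusted p = 2.04e-05). *Brd8* (-1.57) and the remodeller *Ino80* (-1.56) also fell. The 1 higher gene was *Ing3*, a TIP60 subunit, at 3.20 and 2.997 RPKM in PS and 9.80 and 9.27 in RS (1.66, SE 0.17). *Anp32e*, which removes H2A.Z, was at 2.66 and 0.860 RPKM in PS and 1.38 and 1.29 in RS and was not called.

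Among the 9 tested genes of the H3.3 deposition list, 3 were higher in RS, 3 lower and 3 not called, near the 30.4% higher and 27.6% lower among all genes, and the median was -0.41. *Dek*, an H3.3 chaperone, rose from 6.47 and 4.49 RPKM in PS to 16.3 and 17.1 in RS (1.66, SE 0.20, adjusted p = 0.00013 by edgeR), and *Ubn2* (0.63) and *Atrx* (0.69) rose as well. *Ubn1*, a subunit of the HIRA complex like UBN2, fell from 32.8 and 26.4 to 13.1 and 14.7 (-1.05, SE 0.14, adjusted p = 0.00027). *Hira* itself (-0.66) and *Asf1b* (-0.98) also fell. *Daxx*, the partner of ATRX, had 65.8 and 68.0 RPKM in PS and 50.3 and 49.2 in RS, a change of -0.41 that was below 1.5-fold.

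Of 13 general and replication-coupled chaperones, 8 were lower in RS, 1 was higher and 4 were not called (27.6% of all genes were lower and 30.4% higher), with a median of -0.61. *Rbbp4*, a subunit of CAF-1 (-1.65, SE 0.13, adjusted p = 1.24e-05 by edgeR), *Nap1l4* (-1.44), *Supt16*, a subunit of FACT (-1.47), and *Nap1l1* (-1.36) had the smallest p, and the 1 higher gene was *Mcm2* (0.95). Among the other variant histones, 10 of 12 genes were in the tables and 8 were tested, of which 4 were higher in RS, 2 lower and 2 not called, where 30.4% of all genes were higher and 27.6% lower. The spermatid histones rose most: *H1fnt* from 19.4 and 32.6 RPKM in PS to 363 and 352 in RS (3.82, SE 0.24, adjusted p = 5.64e-06 by edgeR), *Hils1* from 58.5 and 81.8 to 688 and 571 (3.20), and *H2afb1*, an H2A.B gene whose copies can share reads, from 11.9 and 18.4 to 213 and 227 (3.90). *Cenpa*, the centromeric H3, rose (1.16), and *H2afx* (-1.40), the DNA damage variant, fell. *Hist1h2ba* (-2.17), a testis H2B, fell as well, but from few reads, 14 and 15 in PS and 5 and 2 in RS. In RS the summed H2A.Z pool of 76.7 and 76.4 RPKM was below the level of *H2afb1*, which in PS it exceeded with 199.5 and 193.3. This ranking is uncertain, because sequence elsewhere matches 90.9% of the *H2afz* transcript and only unique alignments were counted.

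The genes most like *H2afy* over the 4 libraries, by Euclidean distance of mean-centred log2 CPM (TMM-scaled), were *Sesn3* (0.030), *Gm16973* (0.033) and *Vamp3* (0.047), and 588 genes lay within 0.5. *Sesn3* went from 38.3 and 36.1 RPKM in PS to 8.11 and 9.28 in RS. Those most like *H2afz* were *Prpf3* (0.033), *Nap1l4* (0.039), a histone chaperone of the list above, and *Cdkn2c* (0.041), and 1584 genes lay within 0.5. Both profiles were therefore common among the genes of these libraries.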

How the data were processed

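The data were RNA-seq of *Rnf8;Scml2*-dKO cells and H3K27ac ChIP-seq of wild-type cells, with 2 PS and 2 RS samples in each assay, grouped by their titles. The study's methods describe amplified total RNA and name no poly(A) selection. The authors aligned RNA reads to mm10 with STAR 2.4.2a, kept unique alignments, split reads between RefSeq isoforms and deposited raw read counts and RPKM. They aligned ChIPmentation reads with Bowtie and ran MACS2 on every sample; the submitters' processing notes name Bowtie 1.1.1 and MACS2 2.1.0.20140616, and the study's methods name other versions of both. The deposited lists hold the pileup signal, the fold enrichment as a ratio to background, and the -log10 p and q values; read totals are not given there, so depth is seen only through the background (0.722 to 1.46 fragments).

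Rows were summed per gene. RS and PS were compared with edgeR 4.0.16 (quasi-likelihood test, TMM, at least 10 counts in at least 2 samples; R 4.3.3) and, for log2 fold enrichment, limma 3.58.1, with Benjamini-Hochberg adjustment over all genes. The SE of an edgeR fold change is its size over the square root of F. With 2 against 2, no exact permutation test can go below 0.333. The scripts were tested on simulated data. Alternatives were DESeq2 1.42.0, other normalizations, filters, pseudocounts and windows, a replicate block and each sample left out. Summits of an interval were joined, keeping the strongest. Copies were searched with blastn 2.17.0, and promoter sequences are from RefSeq (GRCm38.p6, 8 of 8 members matched).

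The members and gene lists were chosen with earlier results of these data known. Named were all members, from each list the 4 genes with the smallest p if called, and for the 2 called members with the widest change the 3 genes nearest in profile. Genes outside this rule (*Ing3*, *Anp32e*, *Atrx*, *Hira*, *Daxx*, *Mcm2*, *Cenpa*, *Hist1h2ba*, and overlapping or neighbouring genes) and the distal intervals were chosen after their values were seen. *Srcap* and 2 further listed genes were not analysed here.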

Additional observations from a re-analysis of the deposited data

How the results depend on the processing

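Of 241 values under alternatives, 200 kept their direction and call (counts within 1.5 times). These include H3K27ac values from pileup in place of fold enrichment, which could not differ. With one background value per sample, both measures are the same after centring. *H2afz* and *H2afy* RNA were called under every alternative run, as was *H2afy* H3K27ac. In RNA, the *H2afy2* change was 1.03 with DESeq2 (adjusted p = 0.17) and 0.49 with limma on log2(RPKM + 1), so that 0 members were higher there. Leaving out 1 sample gave ranges of 0.81 to 1.30 for *H2afy2* (0 to 1 members higher), -0.81 to -0.34 for *H1fx*, -0.87 to -0.58 for *H3f3b*, -0.26 to 0.23 for *H2afv*, -0.026 to 0.25 for *H3f3a* and -0.020 to 0.032 for *H1f0*, whose value was also 0.0074 with DESeq2 and 0.0073 with RLE normalization. The last 3 were not called in any of these. Without the filter on low counts the median of all genes moved to 0.18.

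For H3K27ac, no centring gave 963 genes higher and 4041 lower, 0 members higher, 0.33 for *H1fx*, -0.73 for *H2afv* (called), -0.0033 for *H3f3a* and -0.17 for *H3f3b*. A window of 5 kb gave -1.13 for *H2afv* and -0.55 for *H3f3b*, with 4 members lower. A -log10 q of at least 5 gave 0.42 for *H3f3a* (called, adjusted p = 0.035), with 2 members higher. With genes that had an interval in at least 2 samples *H2afz* was -0.62 and lost its call (adjusted p = 0.13), with 1 member lower. Leaving out 1 sample gave 1468 to 2470 genes higher and 1114 to 2055 lower, 1 to 3 members lower, -0.87 to -0.43 for *H2afz*, -0.56 to -0.067 for *H2afv* and -0.34 to 0.12 for *H1f0*. Without PS replicate 2 the genes were 1468 and 1114, and without PS replicate 1 1220 were lower. The cause was not tested.

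With the replicate number as a block, 4589 genes were higher and 4134 lower in RNA, and 2329 and 2139 in H3K27ac. It changed no call of a member. Same-numbered PS and RS samples deviated together with a correlation of 0.22 in RNA and 0.0097 in H3K27ac, from 2 pairs, so the numbers are not shown to pair the samples.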
